A study of Arabidopsis thaliana with 18 samples.

Results

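The genes described here rose with safener spray in wild type Arabidopsis thaliana and in a salicylic acid deficient mutant, and rose little or not at all in a mutant that lacks several TGA transcription factors. They were chosen on the measured responses: a probe set had to name 1 gene, hold at least 2 listed values in each of 6 groups, and have a mean log2 difference, safener minus mock, of at least 0.8 in Col0 and in sid2-2 and of at most 0.4 in 4tga. Members of the UGT, GST, ATG, BGLU, CYP and WRKY families and 9 further genes were left out by name. The rule found 10 probe sets of 7810 that could be chosen from and of 22746 on the array. Of these 7810 probe sets, 210 passed the limit in both Col0 and sid2-2. Their median response in 4tga was log2 0.97, with 141 at 0.8 or more, 57 between the limits and 12 at 0.4 or less. The glucosyltransferase gene UGT76B1 and the reductase gene AT3G04000 were the 2 of those 12 that were left out by name.

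Rosette leaves of soil-grown plants aged 4 weeks were profiled on 18 Affymetrix ATH1 arrays, 3 biological samples in each of 6 groups. The wild type was Col0, 4tga is the quadruple mutant tga2tga3tga5tga6, and sid2-2 lacks a working isochorismate synthase, the enzyme behind most of the salicylic acid made under stress; an ecotype is labelled for the wild type alone. All treated plants received one mixture of mefenpyr (5 mM) and isoxadifen (7.2 mM) from an airbrush, and mock plants received the solvent DMSO. Crop plants are given safeners so that they tolerate a herbicide better. Neither the time from spray to harvest nor any pooling of plants was given in the sources used here. None of the 5 genes disrupted in the mutants was named in the annotation used here, so the genotypes were not checked by their targets.

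TGA factors are bZIP proteins that bind short activation elements in promoters. With the coactivator NPR1 they act on defence genes in response to salicylic acid, and with the GRAS protein SCL14 they act on detoxification genes in response to foreign chemicals and oxidised lipids. In leaves their best known targets in the second pathway are glutathione transferases, glucosyltransferases and cytochrome P450 enzymes, the families that were left out here.

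Arrays held 14627 to 16408 listed values each, and pairs of arrays within a group had correlations of 0.977 to 0.994 over probe sets (not independent points). The leaf markers RCA, LHCB4.2 and LHCB4.3 and the phloem marker SWEET11 were listed on all arrays, as were the root marker PYK10 and the guard cell marker FMA. PYK10 ranged between group means of 275 and 507 and was higher in mock sid2-2 than in mock Col0 (log2 0.54, limma adjusted p = 0.0255). That call was lost with filled blanks and without Col0 mock replicate 1 or 3 or sid2-2 mock replicate 3 (adjusted p as high as 0.144). PYK10 fell with safener in sid2-2 (log2 -0.88, limma adjusted p = 0.000688). SWEET11 fell with safener in 4tga (log2 -0.62, limma adjusted p = 0.000389), in sid2-2 (-0.66, 0.000107) and in Col0 (-0.35, 0.0147, but 0.0664 without Col0 safener replicate 3). Of the 3 leaf markers LHCB4.2 fell with safener in Col0 (log2 -0.73, limma adjusted p = 0.000962). In mock sid2-2 against mock Col0 LHCB4.3 was higher (log2 1.00, limma adjusted p = 0.000997), while LHCB4.2 gave -0.38 and RCA 0.22 without passing (limma adjusted p = 0.066 and 0.124). The part of these markers in the differences described here was not tested. The salicylic acid responsive glutaredoxin gene GRX480 was lower in mock sid2-2 than in mock Col0, at 94.2 ± 25.7 against 231 ± 29.1 (SD, n = 3, log2 -1.32, limma adjusted p = 7.39e-06). Each array measures whole rosette leaves, so fewer cells of a type and less RNA per cell cannot be told apart.

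**Figure D1:**
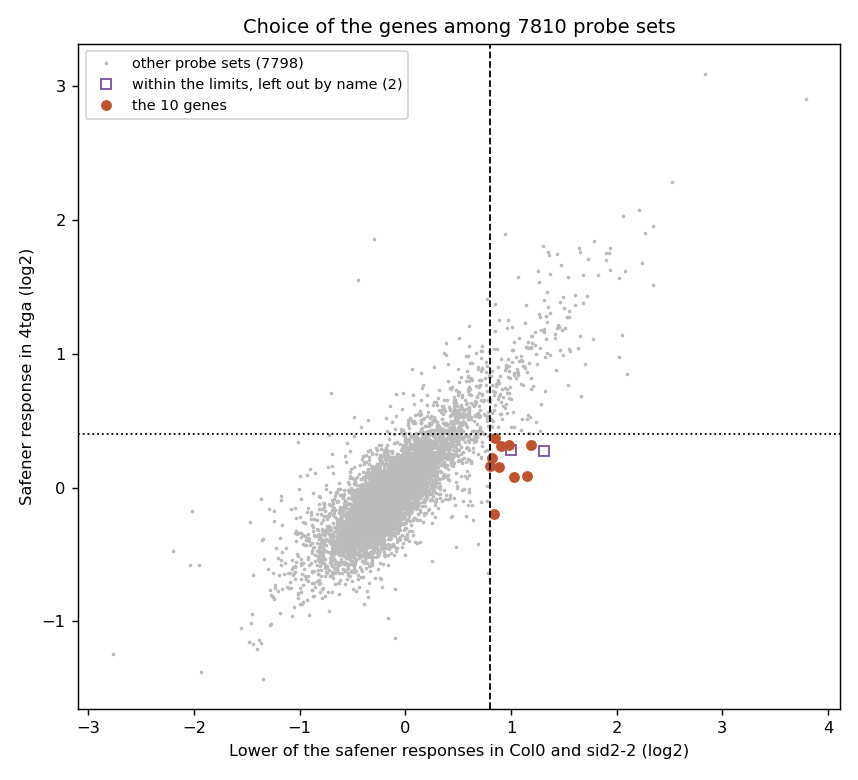
Each point is 1 of the 7810 probe sets that could be chosen from, with the lower of its responses in Col0 and sid2-2 on the horizontal axis and its response in 4tga on the vertical axis, both as log2 safener minus mock. The 10 genes and the 2 left out by name lie right of the dashed limit (0.8) and under the dotted one (0.4), at the edge of a cloud in which the genotypes' responses rise together.

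The values that chose the genes are given as a description, without a test. Over the 10 genes the response ranged from log2 0.82 to 2.08 in Col0 (median 1.05), from 0.80 to 1.38 in sid2-2 (median 0.91) and from -0.19 to 0.37 in 4tga (median 0.19). Over all 7810 probe sets the medians were -0.06 in Col0, -0.10 in sid2-2 and -0.08 in 4tga. All safener arrays lay above all mock arrays for 10 of the 10 genes in Col0 (19.5% of the 7810 probe sets) and for 10 in sid2-2 (14.6%), which the limits nearly enforce. In 4tga the safener arrays still lay wholly above the mock arrays for 4 genes (16.5%), AT3G44190, AT5G64250, NET2D and AT1G70420, by log2 0.15 to 0.32, and wholly below them for AT3G26470 (28.9%). The mean response in 4tga was above 0 for all of the 10 genes but AT3G26470. The label of a response that needs TGA factors therefore covers smaller responses too. Overlap of the arrays did not follow the size of the response. The 4tga treatments overlapped for nad6 (log2 0.37) and AT3G04010 (0.31) and not for AT5G64250 (0.15).

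**Figure D2:**
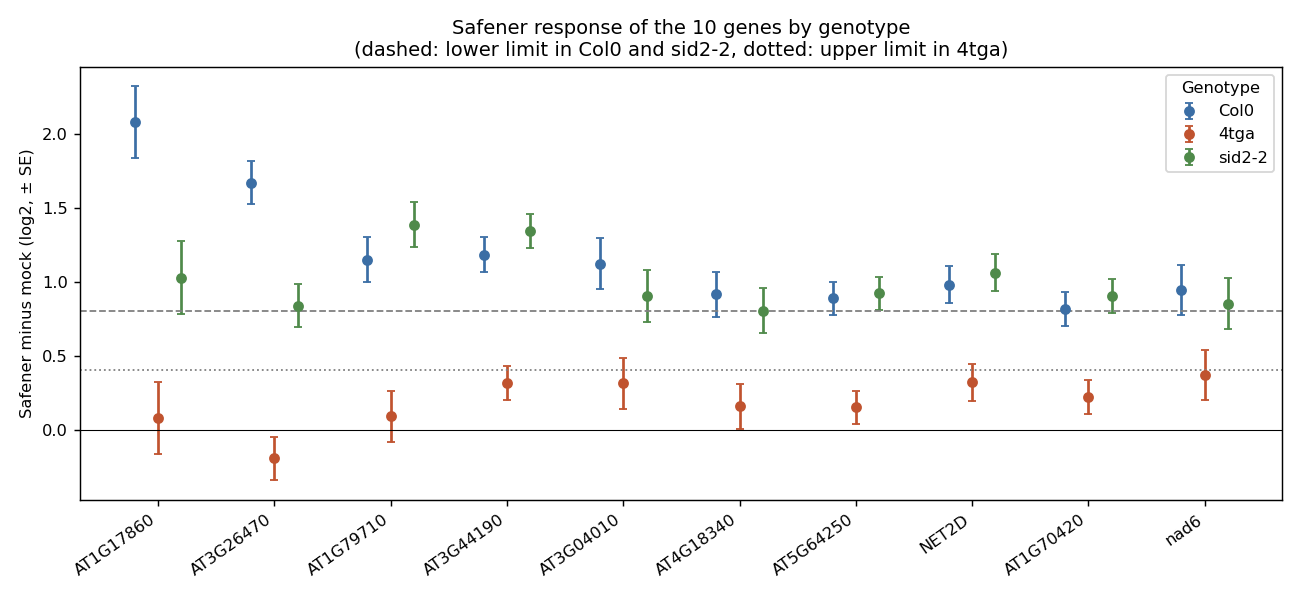
Points show log2 safener minus mock for each of the 10 genes in Col0, 4tga and sid2-2, with SE from the linear model (3 arrays a group, 2 for mock 4tga in AT1G79710). In 4tga all points lie at 0.37 or lower, and AT1G17860 and AT3G26470 had the largest responses in Col0.

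2 genes encode proteins linked to defence. AT1G17860 encodes a protease inhibitor of the Kunitz family, proteins that block digestive and cellular proteases. Mock Col0 arrays gave intensities of 135, 233 and 279, and safener arrays 1113, 760.1 and 784. For 4tga the values were 142, 154 and 165 with mock and 174, 174 and 139.9 with safener. For sid2-2 they were 321, 372 and 639.6 with mock and 929.7, 971 and 717 with safener. So the 4tga arrays overlapped between treatments and stayed under every safener array of the other genotypes. The response was 4.22-fold in Col0 (log2 2.08, SE 0.24), 1.06-fold in 4tga (log2 0.08, SE 0.24) and 2.04-fold in sid2-2 (log2 1.03, SE 0.25). The treated Col0 mean was 5.39-fold above the treated 4tga mean, and the smaller response of sid2-2 came with a mock level above that of Col0.

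AT3G26470 encodes a protein with an RPW8 domain, named after a locus for resistance to powdery mildew. Its intensity in Col0 was 153, 159.9 and 133 with mock and 519, 446 and 452 with safener. 4tga gave 62.4, 62.5 and 59.6 with mock and 51.3, 52.8 and 57.2 with safener. sid2-2 gave 228, 259 and 399 with mock and 521, 528 and 487 with safener. It was the only one of the 10 genes whose treated 4tga arrays all lay under its mock 4tga arrays. Its responses were log2 1.67 in Col0, -0.19 in 4tga and 0.84 in sid2-2 (SE 0.15 each), and treated Col0 was 8.77-fold above treated 4tga, the widest gap among the 10 genes. All treated 4tga arrays lay under all mock Col0 arrays for this gene and for AT1G79710 (2 of 10 genes, 21.6% of the 7810 probe sets), and wholly above them for 6 genes (22.5%).

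AT1G79710, a transporter of the major facilitator superfamily, was measured at lower intensities. Mock Col0 gave 64.2, 66.3 and 69.8, and treated Col0 114, 162 and 175. In 4tga mock replicate 1 was blank, the other two mock arrays gave 36.5 and 38.7, and the treated arrays 38.6, 43.0 and 38.4. Mock sid2-2 gave 65.2, 68.0 and 93.3, and treated sid2-2 192, 222 and 173. The gene rose 2.22-fold in Col0 and 2.61-fold in sid2-2, and its fold in 4tga was 1.06. This was the single blank among the 180 values of the 10 genes. When blanks were set to the lowest value of their array, the 4tga response became log2 0.90 and the gene no longer met the rule.

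Both oxidoreductase genes had a small response in 4tga whose arrays did not overlap. AT3G44190 belongs to a family of FAD- and NAD(P)-binding oxidoreductases. Col0 gave 223, 254 and 261 with mock and 556, 542 and 575 with safener. 4tga gave 253, 239 and 245 with mock and 293, 325 and 302 with safener, and sid2-2 gave 233, 231 and 333 against 679, 672 and 639. The mock arrays of Col0 and 4tga thus overlapped, while the response was log2 1.18 in Col0, 0.32 in 4tga and 1.34 in sid2-2 (SE 0.12 each).

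AT5G64250 encodes an aldolase-type barrel protein related to nitronate monooxygenases. In Col0 it was measured at 482, 531 and 548 with mock and at 802, 1048 and 1057 with safener. In 4tga it gave 482, 456 and 466 with mock and 541, 517 and 501 with safener, and in sid2-2 536, 576 and 636 against 1085, 1230.4 and 998. The 4tga response, log2 0.15 (SE 0.11), was small beside 0.89 in Col0 and 0.92 in sid2-2. Treated 4tga remained below every treated Col0 array.

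2 genes encode glycosyl hydrolases of the plant beta-glucanase type, enzymes that act on cell wall glucans. AT3G04010 gave 239, 214 and 172 in mock Col0 and 467, 461 and 423 in treated Col0. In 4tga it gave 302, 201 and 218 with mock and 249, 301 and 337 with safener, and in sid2-2 256, 314 and 427 against 619, 633 and 577. The treatments overlapped in 4tga (log2 0.31, SE 0.17) and did not in Col0 (1.12) or sid2-2 (0.90).

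AT4G18340, the other glycosyl hydrolase gene, had low intensities. It gave 33.7, 45.4 and 36.2 in mock Col0 and 81.3, 62.3 and 73.2 in treated Col0. 4tga gave 40.8, 39.4 and 50.4 with mock and 46.9, 47.9 and 50.1 with safener, and sid2-2 gave 41.7, 42.5 and 61.2 against 90.7, 72.8 and 87.0. Its sid2-2 response of log2 0.80 lay closest to the limit among the 10 genes. It and nad6 were not chosen after quantile normalization, and neither these nor NET2D and AT1G70420 on the log2(intensity + 16) scale.

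NET2D (AT2G22560) encodes an actin-binding protein of the NETWORKED family. Col0 gave 40.9, 49.6 and 52.8 with mock and 85.9, 96.4 and 99.1 with safener. 4tga gave 64.6, 61.9 and 72.5 with mock and 90.4, 73.0 and 85.2 with safener, and sid2-2 gave 40.8, 50.5 and 55.9 against 96.4, 108 and 100.4. Here treated 4tga overlapped treated Col0, and mock 4tga lay above mock Col0, so that the smaller response in 4tga (log2 0.32 against 0.98 in Col0) came with a higher starting level and not with a clearly lower treated one.

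AT1G70420, a gene of unknown function, gave 128, 107 and 95.8 in mock Col0 and 184, 201 and 194 in treated Col0. In 4tga it gave 118, 118 and 122 against 143, 128 and 146, and in sid2-2 135, 124 and 145 against 237, 295 and 227. Its Col0 response of log2 0.82 was the lowest of the 10.

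The last member, nad6, is a gene of the mitochondrial genome for a subunit of respiratory complex I, whereas TGA factors act on nuclear genes. Its probe set carries the suffix _s_at, which marks probes that can match more than 1 transcript. It gave 35.3, 30.5 and 28.0 in mock Col0 and 69.2, 62.7 and 49.7 in treated Col0. 4tga gave 42.0, 41.8 and 47.7 against 63.6, 44.7 and 63.3, and sid2-2 gave 47.8, 53.4 and 66.4 against 102, 121 and 79.6. The 4tga arrays overlapped between treatments, and treated 4tga overlapped treated Col0. Among 9 other mitochondrial probe sets that could be chosen from, the response ranged from log2 -0.79 to 0.66 in Col0 (median -0.11), from -0.36 to 0.63 in 4tga (median -0.10) and from -0.44 to 1.71 in sid2-2 (median 0.36). Of these 10 mitochondrial probe sets nad6 alone passed the limit in both Col0 and sid2-2.

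**Figure D3:**
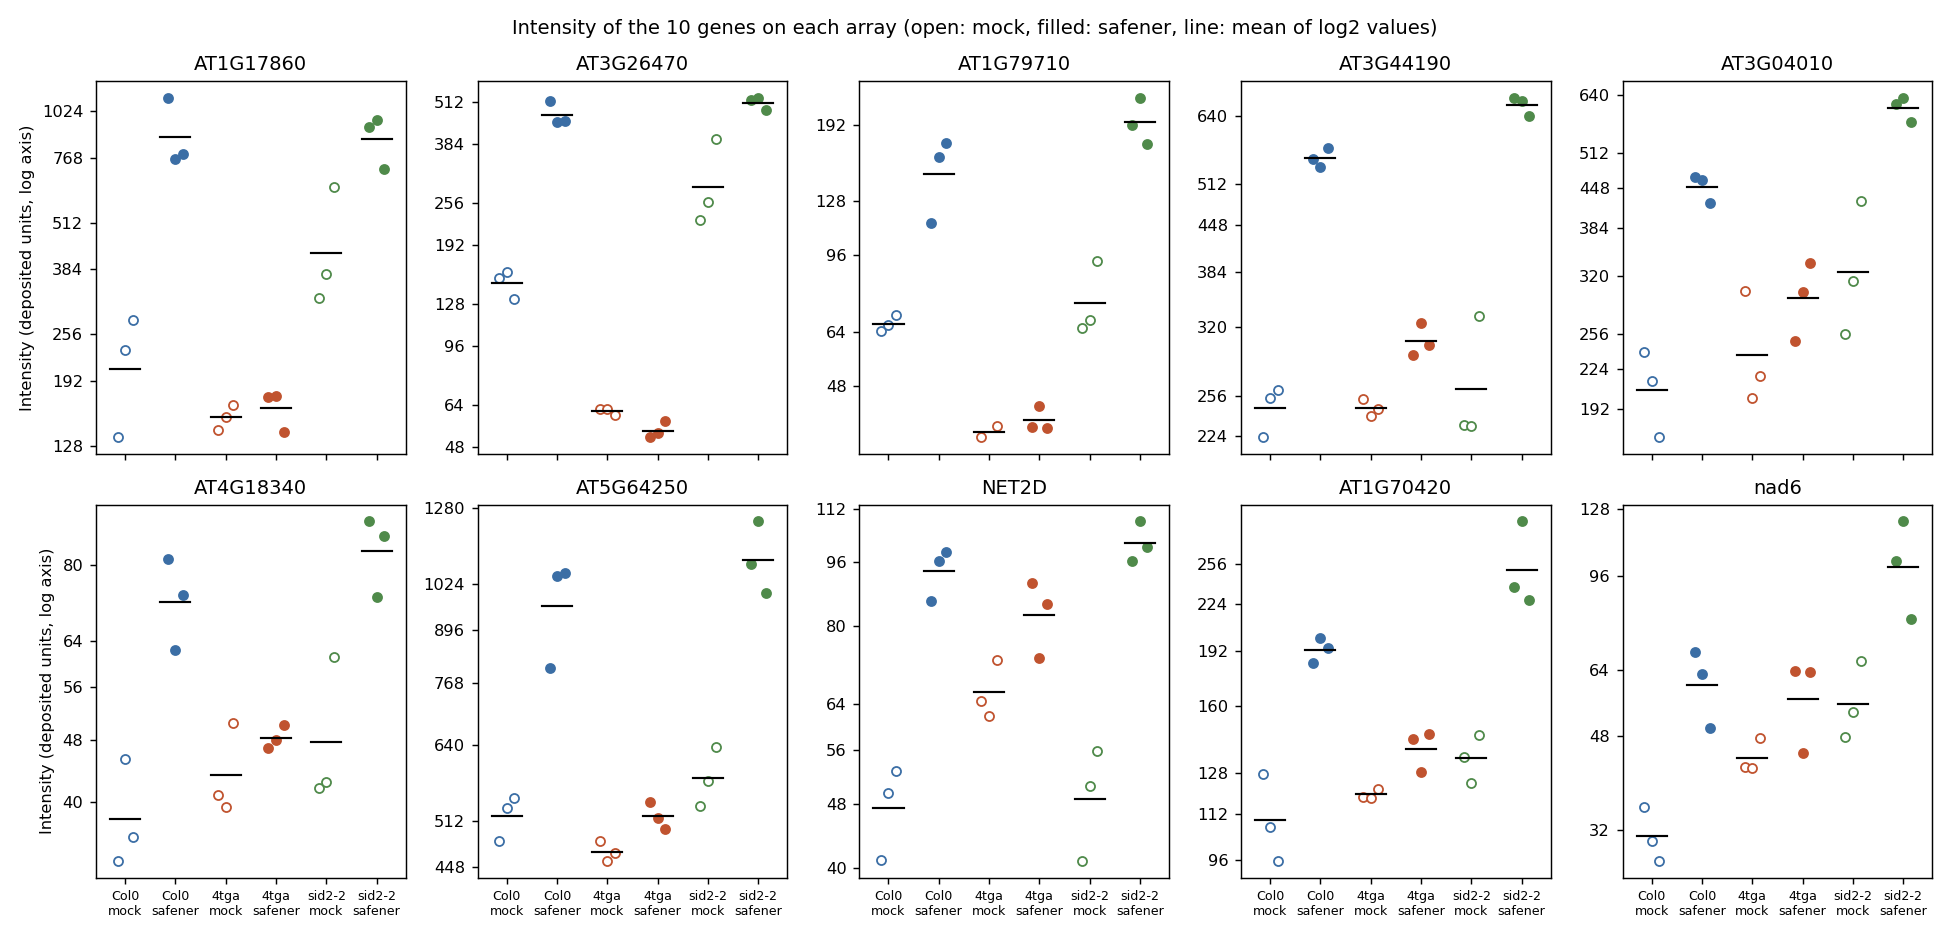
Each panel shows 1 gene, with intensity on a log axis for the 3 arrays of each group (open points mock, filled points safener, the line the mean of the log2 values). The treated 4tga arrays stay near the mock level in the upper row for AT1G17860, AT3G26470 and AT1G79710, and reach the treated Col0 arrays for NET2D and nad6.

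Treated 4tga lay wholly under treated Col0 for 8 of the 10 genes (13.2% of the 7810 probe sets), the exceptions being NET2D and nad6, and wholly under treated sid2-2 for all 10 (20.9%). These counts use the arrays of the rule and support nothing beyond it. By group mean, treated sid2-2 was the highest of the 6 groups for 9 genes and treated Col0 for AT1G17860. The rule favours these treated groups as the highest and mock Col0 as the lowest. Shares over all probe sets were not taken for the highest and lowest groups. Treated sid2-2 lay wholly above treated Col0 for 4 genes (20.8%), AT3G44190, AT3G04010, AT1G70420 and nad6, and overlapped it for the other 6. In the mock arrays 4tga lay wholly above Col0 for NET2D and nad6 (21.2%) and wholly below it for AT3G26470, AT1G79710 and AT5G64250 (8.30%), and sid2-2 lay wholly above Col0 for 4 genes (26.8%). For AT5G64250 the nearest mock arrays of 4tga and Col0 were almost equal, at 482.43 and 482.46 (log2 -0.15, limma adjusted p = 0.487). AT1G79710 had 2 mock 4tga values. The lowest group was mock Col0 for 6 genes, mock 4tga for 3 and treated 4tga for AT3G26470. The response of sid2-2 exceeded that of Col0 for 5 genes and was smaller for 5, from log2 -1.05 for AT1G17860 and -0.83 for AT3G26470 to 0.24 for AT1G79710.

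The limits cut through a continuous distribution. Just inside the Col0 limit were AT1G70420 (log2 0.82) and AT5G64250 (0.89), and just outside AT3G04640 (0.80, rounded up from below the limit) and AT3G47380 (0.78). At the sid2-2 limit AT4G18340 (0.80) and AT3G26470 (0.84) were inside and AT1G63840 (0.78) and AT2G47890 (0.76) outside. At the 4tga limit nad6 (0.37) and NET2D (0.32) were inside and AT2G37750 (0.41) and AT1G72800 (0.43) outside. A 4tga limit of 0.2 kept 5 genes, and one of 0.6 gave 33. With limits of at least 1.0 in Col0 and sid2-2 there were 3, AT1G17860, AT1G79710 and AT3G44190.

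OCT5 (AT1G79410), an organic cation/carnitine transporter gene, missed the rule through sid2-2 alone, with responses of log2 1.14 in Col0, -0.10 in 4tga and 0.54 in sid2-2. Mock Col0 gave 219, 203 and 214 and treated Col0 416, 481 and 515. Mock 4tga gave 36.9, 30.0 and 35.9, and treated 4tga 35.6 and 28.3 with 1 blank. sid2-2 gave 487, 511 and 551 with mock and 743, 783 and 732 with safener. Its mock level was 6.22-fold lower in 4tga than in Col0 (log2 -2.64, SE 0.11, limma adjusted p = 1.87e-11) and 2.43-fold higher in sid2-2 (log2 1.28, SE 0.11, limma adjusted p = 3.62e-07, but 0.0768 with filled blanks). Its mean mock levels thus rose from 4tga to Col0 to sid2-2. The means of AT3G26470, AT1G17860, AT1G79710 and AT5G64250 had this order too, but of these only AT3G26470 passed in both steps. AT5G64250 passed in neither (limma adjusted p = 0.487 for 4tga and 0.319 for sid2-2). Without sid2-2 mock replicate 3 the AT1G79710 difference, sid2-2 minus Col0, was log2 -0.002. The share of all probe sets with this order was not taken.

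Whether the genes also differ between genotypes without safener was read from the mock arrays, by a limma fit over all arrays with Benjamini-Hochberg adjustment over every probe set tested. This contrast is not the one that chose the genes, but it uses the same mock arrays: a high response in Col0 and a low one in 4tga favour a low mock value in Col0 and a high one in 4tga. In mock 4tga 2 of the 10 genes were lower than in mock Col0 (1.77% of 15018 probe sets tested) and 1 was higher (6.04%). AT3G26470 was 2.41-fold lower, at a mean of 61.5 against 149 (log2 -1.27, SE 0.15, limma adjusted p = 1.06e-05). AT1G79710 was 1.78-fold lower, at 37.6 over 2 arrays against 66.7 (log2 -0.83, SE 0.17, limma adjusted p = 0.00435), and the call was lost with blanks at the lowest value of the array (adjusted p = 0.0758). Both differences run against the direction that the choice favours.

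NET2D was higher in mock 4tga, at a mean of 66.3 against 47.8 (log2 0.48, SE 0.13, limma adjusted p = 0.0231), in the direction that the choice favours. Leaving out Col0 mock replicate 1 or 2, leaving out 4tga mock replicate 1 or 3, or filling blanks each ended the call, with an adjusted p as high as 0.119. The nad6 value was log2 0.49 (SE 0.17) with all 4tga mock arrays above those of Col0, and it did not pass (limma adjusted p = 0.0895). AT1G17860 gave log2 -0.43 (SE 0.24, limma adjusted p = 0.333), and the other 5 genes lay between -0.15 and 0.19. The median over the 10 genes was 0.06, beside 0.07 over all probe sets tested.

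In mock sid2-2 4 of the 10 genes were higher than in mock Col0 (17.3% of 15002 probe sets tested) and 0 were lower (5.37%), with 6 of the 10 higher at an unadjusted p under 0.05 by limma (27.3% of all). AT1G17860 was 2.05-fold higher (444 against 216, log2 1.04, SE 0.24, limma adjusted p = 0.00522). AT3G26470 was 1.93-fold higher (295 against 149, log2 0.95, SE 0.15, limma adjusted p = 0.000145). nad6 was 1.78-fold higher (log2 0.83, limma adjusted p = 0.00201) and AT3G04010 1.57-fold higher (log2 0.65, limma adjusted p = 0.0115, but 0.0626 without Col0 mock replicate 3). The remaining 6 genes gave log2 0.04 to 0.32, and the median over the 10 genes was 0.31, beside 0.11 over all probe sets tested. This comparison shares its Col0 arrays with that of 4tga. Its mock arrays of both genotypes also served the rule, so its p-values are not independent of the choice. A low mock Col0 value favours the choice and a positive difference. A low mock sid2-2 value favours the choice and a negative one.

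Mock replicate 3 of sid2-2 was the highest of its group for 10 of the 10 genes, against 54.3% of all probe sets that could be chosen from. Its median deviation from the group mean was log2 0.34 over the 10 genes and 0.07 over all. Without this array 3 of the 10 genes were higher in mock sid2-2 (11.3% of 14778 probe sets tested), and AT3G04010 was not called (log2 0.46, limma adjusted p = 0.0731). The calls for AT1G17860 (log2 0.74, limma adjusted p = 0.0369), AT3G26470 (log2 0.71) and nad6 (log2 0.70) remained. The sid2-2 responses of the 10 genes then ranged from log2 0.96 to 1.55 (median 1.09), and the rule chose 17 genes, these 10 among them. Treated sid2-2 arrays were uneven as well. Replicate 2 was the highest of that group for 8 of the 10 genes (41.2% of all) and replicate 3 for 0 (27.7%). Treated replicate 3 was the lowest for 8 genes.

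**Figure D4:**
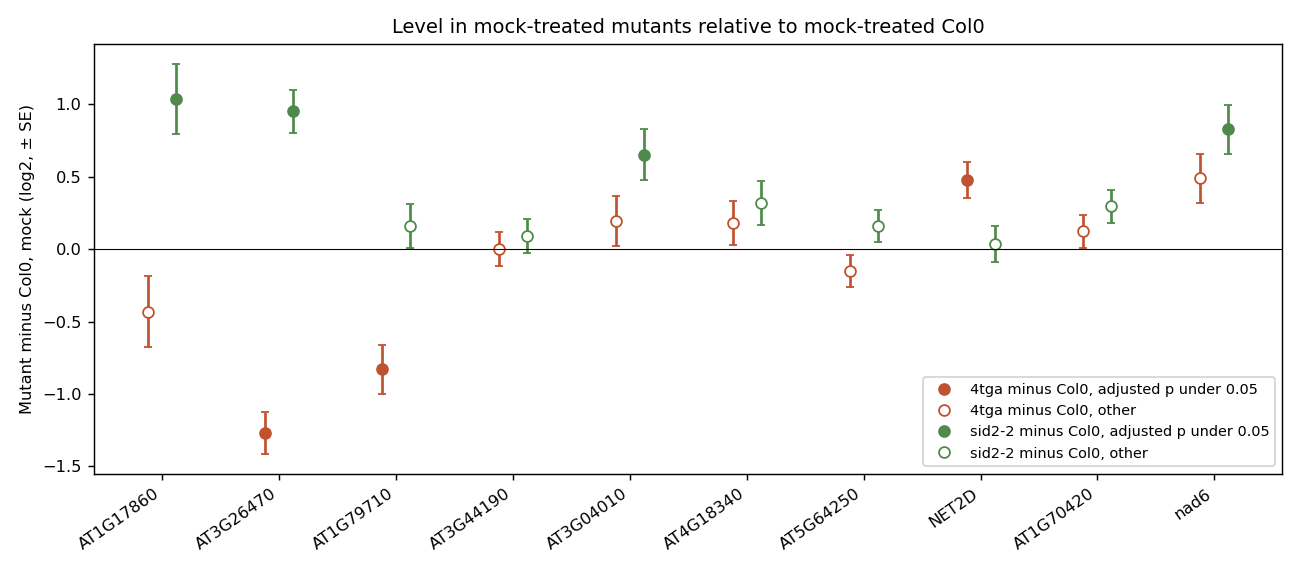
Points show log2 mutant minus Col0 in mock-treated leaves for the 10 genes, with SE from the linear model, filled where the adjusted p was under 0.05. For 4tga AT3G26470 and AT1G79710 lie below 0 and NET2D above it, and for sid2-2 all 10 points lie above 0, with 4 filled.

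The same measure was then read in arrays that took no part in the choice. The rule was applied again without replicate 1, 2 or 3 of every group, and the response of the probe sets so chosen was taken from the left-out arrays, with 1 array per group and no test. Without replicate 1 the rule chose 12 probe sets, of which 5 were among the 10 genes. In the left-out arrays 8 of the 11 with values had a larger response in both Col0 and sid2-2 than in 4tga, against 33.0% of all probe sets, and the median responses were log2 0.59, 0.27 and 0.86 in Col0, 4tga and sid2-2. Without replicate 2 it chose 11, of which 6 were among the 10 genes, and 11 of 11 kept that order (41.6% of all), with medians of 0.96, 0.24 and 1.10. Without replicate 3 it chose 21, of which 8 were among the 10 genes, and 11 of 20 kept the order (26.2% of all), with medians of 1.03, 0.47 and 0.39. The left-out sid2-2 mock array was in that last case the one on which the genes stood high. The left-out treated sid2-2 array was the lowest of its group for 8 of the 10 genes.

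Fewer probe sets passed all limits again, 1, 3 and 2 in turn, against 0.429%, 0.318% and 0.208% of all. AT3G44190, AT5G64250 and NET2D were chosen in all 3 rounds. In the left-out arrays AT3G44190 gave log2 1.32, 1.09 and 1.14 in Col0, 0.21, 0.44 and 0.30 in 4tga, and 1.55, 1.54 and 0.94 in sid2-2. When single arrays were left out one at a time, the rule chose 6 to 17 genes with 6 to 10 of the original ones, and AT1G17860, AT3G44190 and AT5G64250 were chosen in all 18 cases.

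**Figure D5:**
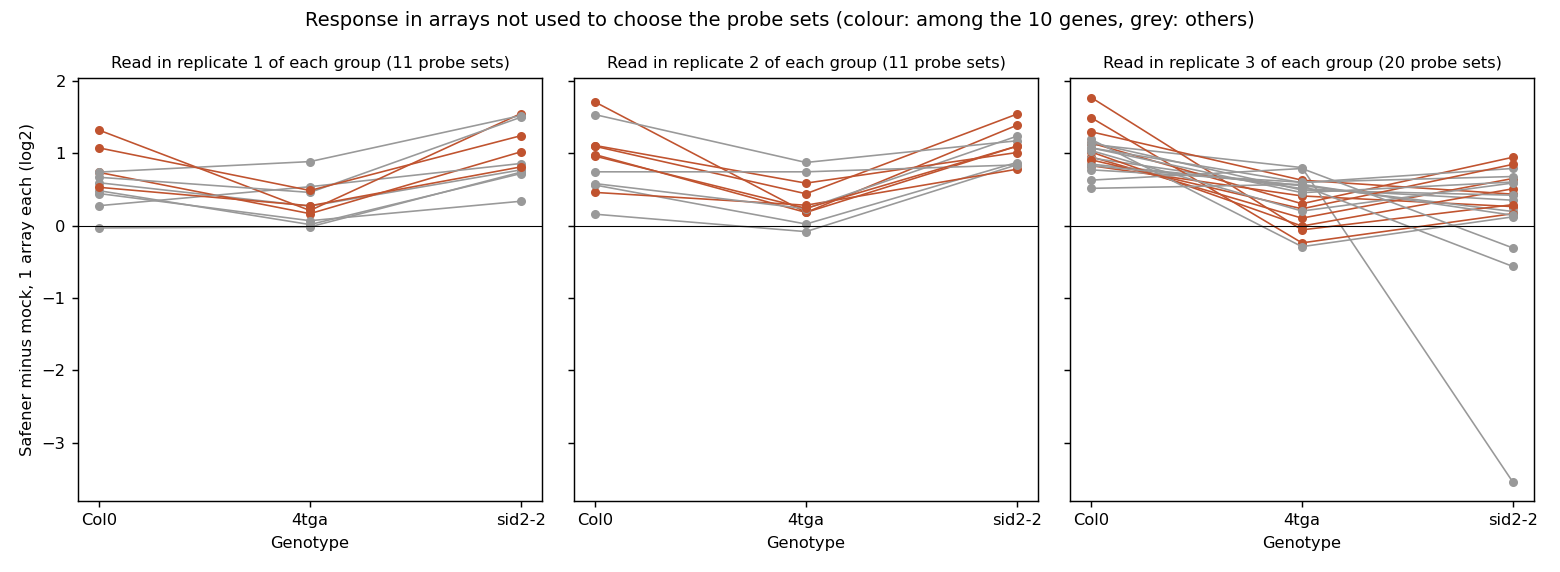
Each line is 1 probe set chosen without the replicate named above the panel, read in the left-out arrays as log2 safener minus mock from 1 array per group (coloured lines belong to the 10 genes). Median responses in 4tga lie under those of Col0 and sid2-2 in the panels for replicates 1 and 2, while in the panel for replicate 3 the sid2-2 median (0.39) lies under that of 4tga (0.47).

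The genome neighbours of the genes were looked up in the order of the RefSeq gene table, since the rule did not use position. Of 18 protein-coding neighbours of the 9 nuclear genes, 8 had a named probe set and 4 enough values. AT3G04000, which encodes a short-chain reductase, lies next to AT3G04010 and was the 1 of these 4 that met all limits, with log2 1.27 in Col0, 0.28 in 4tga and 1.00 in sid2-2. The gene on the other side, AT3G04020, gave log2 -0.32, -0.23 and -0.51. The ranges of AT3G04000 and AT3G04010 overlap in that table, and whether the probes lie in the overlap was not tested. AT1G79720, whose range overlaps that of AT1G79710, gave log2 -0.58 in Col0, -0.28 in 4tga and -0.52 in sid2-2, so it did not share the pattern, nor did AT1G17850 beside AT1G17860 (log2 -0.25, -0.24 and -0.34).

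As a frame for the pathway, 32 genes known for a TGA-dependent or wider xenobiotic response were listed, of which 15 were named on the array. The list was written from general knowledge, but with earlier results of these data known. Its counts beside the shares of all probe sets are therefore a description and not independent support. The rule leaves out 10 of these 15 by name, AT3G04000 among them, so that 0 among the 10 genes is no result. With safener 14 of 14 tested rose in Col0 (14.9% of 14704 probe sets rose), with a median of log2 1.17 beside -0.06 over all. In sid2-2 14 of 15 rose (13.0%), with a median of 1.00. In 4tga 6 of 12 rose (8.81%) and 1 fell (10.3%), with a median of 0.50. AER, GSTU25 and UGT73B4 had too few values in 4tga to be tested there. Over the 12 genes tested in every genotype, 12 rose in Col0 (median 1.11), 11 in sid2-2 (0.99) and 6 in 4tga. The response was smaller in 4tga than in Col0 for 4 of 12 (0.426% of 14556 probe sets) and larger for 0 (0.0412%), with a median difference of log2 -0.58 beside -0.02 over all, and the 4 became 1 to 5 when 1 array was left out.

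Those 4 were AT1G09500, UGT73C1, AT5G61820 and AT3G04000. As AT3G04000 met all limits of the rule, its smaller response in 4tga repeats what the rule measured. The dehydrogenase family gene AT1G09500 went from a mean of 67.8 to 270.3 in Col0 and from 53.2 to 70.1 in 4tga. AT4G01870 instead rose in 4tga as well, from 465 to 1537 (log2 1.74) against 1517 to 3923 in Col0 (log2 1.36), from a lower mock level. In mock 4tga 7 of 13 listed genes were lower than in mock Col0 (1.77% of all) and 0 higher (6.04%). Of these calls, those for AER (limma adjusted p up to 0.0838) and AT1G60730 (up to 0.0564) were lost in an alternative. Mock sid2-2 differed from mock Col0 too, with 11 of 14 listed genes higher (17.3% of all) and 1 lower (5.37%). AT4G13180, a reductase gene, stood at a mean of 48.7 in mock 4tga against 600.4 in mock Col0 (log2 -3.61, limma adjusted p = 1.67e-12).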

How the data were processed

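The deposited table holds linear intensity values, 1 per probe set and array, and the submitters' processing notes name RMA as the authors' method without a version. RMA alone gives log2 values without blanks or a fixed linear median, so how the deposited values were reached is not given in the sources used here. Every array had a median of 200 over its listed values, 27.9% to 35.7% of values per array were blank, and 0 columns were left out. Intensities were converted to log2 and blanks kept as missing. Annotation of the platform named 1 gene for 13513 probe sets. The 6 group means were fitted to all 18 arrays with limma 3.58.1 in R 4.3.3, with Benjamini-Hochberg adjustment over all probe sets with at least 2 values in each group of a comparison, called at an adjusted p under 0.05. P-values reflect the spread between the labelled biological samples, and 3 arrays per group limit the precision. The fit was tested on simulated data.

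The genes, lists and tests were chosen with earlier results of these data known. The naming rule covered all 10 genes, the 2 probe sets on each side of each limit, and up to 4 genes a list with the smallest adjusted p. OCT5 was to be named as a member only. It, AT4G01870, AT4G13180, the marker genes, the neighbours and the genes of the closing observations were named after their values were seen. Alternatives were quantile normalization, log2(intensity + 16), complete probe sets, filled blanks, a replicate block, fewer arrays, array weights and other limits. The replicate numbers did not pair the samples: same-numbered arrays had a median correlation of -0.01 in their deviations (-0.41 to 0.46). The files name no genome build, so no coordinates are printed. Promoter motifs were planned and not analysed here, and sequences are not given.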

Additional observations from a re-analysis of the deposited data

Results flagged for a closer look

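In 4 genes of the xenobiotic list, which are not among the 10 genes, the safener response differed between 4tga and Col0 by the interaction term of the limma fit. The response in 4tga minus that in Col0 was log2 -1.59 for AT1G09500 (SE 0.27, limma adjusted p = 0.00801, at most 0.0496 in any alternative). For UGT73C1 it was -1.04 (SE 0.19, limma adjusted p = 0.0142, up to 0.053), for AT5G61820 -0.74 (SE 0.15, limma adjusted p = 0.0321, up to 0.12) and for AT3G04000 -0.99 (SE 0.21, limma adjusted p = 0.046, up to 0.154). AT3G04000 met all limits of the rule and was left out by name alone, so its test adds nothing to the rule. AT1G09500 and AT5G61820 were on the rule's list of names as well. As the xenobiotic list was written with earlier results of these data known, the other p-values here are not independent support either. For the 10 genes themselves this difference was part of the choice and was not tested.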

How the results depend on the processing

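The number of genes met by the rule rested on its limits and on single arrays. It was 49 with blanks at the lowest value of the array (9 of the 10 genes among them), 5 and 33 with 4tga limits of 0.2 and 0.6, 45 and 3 with lower limits of 0.6 and 1.0, and 6 to 17 when 1 array was left out, the extremes being without sid2-2 mock replicate 1 and 3. Genes lower in mock 4tga numbered 2, but 1 with complete probe sets or filled blanks and 3 with array weights (1 to 2 with 1 array left out, since AT1G79710 has too few values without 4tga mock replicate 2 or 3). Genes higher in mock 4tga numbered 1, but 0 with filled blanks, 2 with the arrays of the comparison alone, 2 with array weights, and 0 to 1 with 1 array left out. Genes higher in mock sid2-2 numbered 3 to 6 over all alternatives. Listed xenobiotic genes with a smaller response in 4tga numbered 4, but 7 with array weights and 1 to 5 with 1 array left out, with 1 without 4tga mock replicate 3 and 2 without Col0 mock replicate 1, 2 or 3, Col0 safener replicate 2 or 3, 4tga mock replicate 1, or 4tga safener replicate 2 or 3. With the replicate number as a block these counts were 2, 1, 4 and 3, and the block changed no other count. Of 172 repeats of the 7 called mock differences, 164 kept the call, 8 lost it and 0 changed direction. Most of these repeats left the values of the compared arrays unchanged. Their estimate stayed the same and could not change direction, so the 164 overstates how firm the calls are. Of 295 repeats of the 30 responses of the 10 genes, 290 moved by less than the spread between replicates. Leaving out 1 of 3 arrays cannot shift a response by that much. Complete probe sets and filled blanks left nearly all of these responses unchanged, so the 290 does not measure how stable the responses are.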

Other observations

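Genes with blanks throughout a group could not enter the rule, since it needs values in all 6 groups. Among probe sets naming 1 gene, 16 were listed on all safener arrays of Col0 and sid2-2 and on no safener array of 4tga, and 11 showed the reverse. Of the 16, 5 had at most 1 mock value in Col0 and in sid2-2. The others were listed in mock leaves too, and some had lower values with safener: for ATSBT5.2 the geometric mean was 165 in mock and 82.1 in treated Col0 and 222 and 91.1 in sid2-2, and for URE 134 and 86.9 in Col0. The 16 included the glutathione transferase genes GSTU25 and GSTU22 and the glucosyltransferase genes UGT73B1, UGT73B4 and UGT73C7. GSTU25 had a mean of 165 in mock and 416 in treated Col0 and of 435 and 812 in sid2-2, and it was blank on all arrays of 4tga. AT2G15780 and WRKY42 were listed on the treated arrays of Col0 and sid2-2 and on no other array. A blank gives no level, so no fold is given against it.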
